A study of Mus musculus with 17 samples.

Results

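The genes described here are 32 members of the p53 pathway: Trp53 itself, its inhibitors Mdm2 and Mdm4, and 29 genes that p53 is known to switch on. They were chosen by name from that textbook role, and they are 32 of the 47643 gene rows in the count table. Of the 32, 31 passed the filter on low counts and were among the 19951 genes tested; Phlda3, an inhibitor of AKT signalling, lay between 0 and 0.298 CPM (read counts scaled to a common library size) in every library and was not tested.

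RNA-seq was made from mouse bone marrow cells sorted as cKit+ and negative for lymphoid and erythroid markers, a gate for haematopoietic stem and progenitor cells. The URE is an upstream enhancer of the gene for the transcription factor PU.1, and Tet2 encodes an enzyme that oxidises methylated cytosine in DNA. Wild-type mice (WT, URE+/+;Tet2+/+), mice with a URE deletion on 1 allele (URE het), mice with 1 lost Tet2 allele (Tet2 het) and mice with both lost (Tet2 KO) gave 3 libraries each, all labelled Normal, 12 in all. Mice that carried the URE deletion on 1 allele with Tet2 het gave 2 libraries, and those that carried it with Tet2 KO gave 3, and these 5 are labelled AML (acute myeloid leukaemia). The 2 URE het Tet2 het libraries are called het compound 1 and 2 below, and the 3 URE het Tet2 KO libraries KO compound 1 to 3. Every AML library was thus a compound mutant and every compound mutant library was AML, so disease state and compound genotype cannot be told apart. The labels give no age, strain or promoter for the deletions, and do not say that libraries of a group came from separate mice, so p-values measure the spread between these libraries. Gene counts summed to between 21102969 and 38254157 per library.

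The p53 protein is a transcription factor that is held at a low level by MDM2, a ubiquitin ligase that marks it for degradation, and by MDM4, which blocks its transactivation domain. DNA damage, oncogene activity or ribosome stress frees p53, which then binds a pair of half-sites in DNA and switches on genes for cell cycle arrest, apoptosis, DNA repair and metabolic control. Mdm2 is itself a target, which closes a feedback loop, and in blood stem cells p53 is known to restrain division and to remove damaged cells. Much of p53 control acts on the protein, which RNA counts do not measure.

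The p53 binding sequence is what the targets are known for, so the members' promoters were searched for it. RefSeq promoter windows of 300 bases (250 before to 50 after the transcript start, GRCm38.p6) were matched for 25 of the 32 members, in 36 windows. A p53 element was taken as 2 p53 half-sites of 10 bases with 0 to 13 bases between them, each with its C and G of the core, and with at most 2 mismatches in all to the consensus, which reads the same on both strands. Such an element stood in 4 of the 36 member windows (11.1%) and in 1342 of 32851 windows of all genes (4.09%). A single half-site with no mismatch stood in 10 member windows (27.8%) and in 2745 of all windows (8.36%). The 4 windows with an element are among these 10, so the counts are not separate. Overlapping windows of Aen held the same half-site, which is thus counted more than once. The 4 elements are shown 5′ to 3′ on the gene's strand, with the half-sites in capitals and the bases between them in lower case:
Ccng1, chr11:40755462-40755481, minus strand: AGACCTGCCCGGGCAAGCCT
Gtse1, chr15:85859945-85859964, plus strand: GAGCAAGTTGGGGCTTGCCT
Bax, chr7:45467079-45467099, minus strand: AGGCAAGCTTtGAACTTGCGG
Sesn1, chr10:41887253-41887275, plus strand: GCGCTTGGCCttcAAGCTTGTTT
The first and second of these had 1 mismatch each and the other two had 2 each. Counted with 0 at the start base of the window's transcript, the Ccng1 element began at -195, the Gtse1 element at -1, the Bax element at -201 and the Sesn1 element at -186. Gtse1 and Sesn1 each had a further window, at another transcript start, with neither pattern. The Sesn1 window that held the element lies inside the gene's span. Among the genes on which the comparisons below turn, Trp53, Mdm2 and Polk had a half-site with no mismatch, shown in capitals with 5 flanking bases on each side in lower case:
Trp53, chr11:69580284-69580293, plus strand: cggaaGGACTTGCCCttact
Mdm2, chr10:117710935-117710944, minus strand: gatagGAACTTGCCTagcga
Polk, chr13:96519409-96519418, minus strand: agcttGAACTAGCCTcaaac
Polk had a further window, at another transcript start, with neither pattern. The windows of Ddit4 and Mdm4 held neither pattern, which says only that these letters are absent from those windows. Zmat3 and Trp53inp1 had no window and were not searched. A match is a description of the sequence, not of binding.

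In AML against Normal, the mean of the 2 compound groups was compared with the mean of the 4 Normal groups on the log2 scale. Ddit4, Zmat3, Trp53inp1, Polk and Mdm4 were higher in AML and no member was lower, by edgeR's quasi-likelihood test at an adjusted p of 0.05. That is 5 of 31 members, beside 11% of all genes tested (6.94% higher and 4.02% lower). The fold change was positive for 22 members and negative for 9, with a median log2 fold change of 0.40 beside 0.05 over all genes tested. The 5 fall in 4 roles: 1 of 3 regulators, 2 of 9 apoptosis genes, 1 of 3 repair genes and 1 of 9 metabolism, redox and stress genes, and none of 4 cell cycle genes or of 3 death receptors. Ddit4, Zmat3 and Trp53inp1 reached folds of 2.80 to 5.86, and Mdm4 and Polk 1.32 and 1.70.

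**Figure D1:**
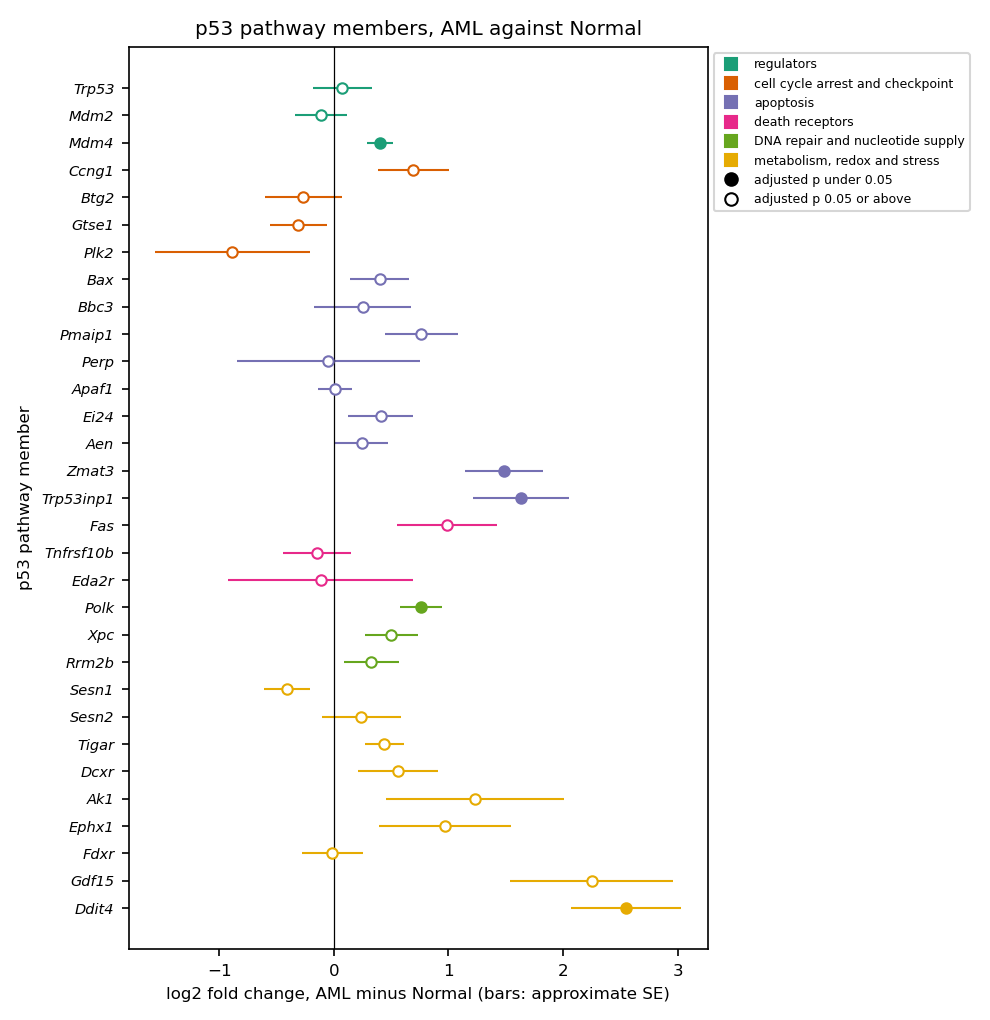
Log2 fold change of AML against Normal (horizontal axis) for the 31 tested members, with bars of 1 approximate standard error on each side. Filled points have an adjusted p under 0.05. Ddit4, Zmat3, Trp53inp1, Polk and Mdm4 are the filled points, all to the right of 0.

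Facts of the libraries bear on all that follows. On the first principal component of all tested genes (36.6% of the variance), 3 AML libraries (het compound 1, KO compound 2 and 3) lay at 133.9 to 154.4, the other two (KO compound 1 and het compound 2) at 14.5 and -14.16, and the Normal libraries at -56.1 to -8.035. The titles number the libraries 1 to 17; numbers 1 to 7 hold WT replicates 1 and 2 and replicate 1 of every other group, and numbers 8 to 17 hold the rest. The labels do not call this a batch, but 36.4% of genes differed between the ranges within the 12 Normal libraries, so AML values are set beside all 12 Normal libraries and, for many members, also beside those of the same range. Summed markers of late neutrophils lay at 24930 to 89210 CPM in Normal and 10340 to 32310 in AML, and 4 of the 6 were called lower (S100a8, S100a9, Ltf and Camp). Those of mast cells, basophils and eosinophils lay at 90.35 to 262.5 against 19.61 to 98.41 (4 of 6 called lower), and those of T and NK cells at 58.89 to 153.4 against 17.63 to 92.21. Erythroid markers lay at 80.99 to 213.1 against 58.8 to 153.5, monocyte and dendritic markers at 108.5 to 288.1 against 19.24 to 227 (3 of 6 called lower), and stromal and endothelial markers at 35.57 to 58.18 against 18.86 to 135.2. Markers of the sorted gate lay at 2809 to 7379 against 5575 to 8267 CPM, a sum that its most abundant markers dominate. Singly, 2 of these 7 had a positive fold change in AML and 5 a negative one, 1 of them called lower. Their median log2 fold change was -0.43. Kit itself, the gate's defining marker, was present in every library, at 99.97 to 187 CPM in Normal and 117 to 170.4 in AML, while Gata2 was at 0 in some AML libraries. The part of these shifts in cell make-up in any member's difference was not tested, and in bulk samples a change in the number of expressing cells and a change in RNA per cell cannot be told apart.

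Among the regulators, Trp53 (chromosome 11, 69580359 to 69591873) encodes p53. Its level was 29.6, 37.7 and 54.6 CPM in WT replicates 1 to 3, 37.6, 43.0 and 51.1 in URE het, 32.1, 50.3 and 44.9 in Tet2 het, and 40.7, 46.7 and 51.1 in Tet2 KO. The AML libraries had 24.2 and 62.1 CPM in URE het Tet2 het and 22.7, 50.2 and 71.3 in URE het Tet2 KO. The AML group thus reached both below and above every Normal library: the 2 with low title numbers were the lowest of all 17, and het compound 2 and KO compound 3 the highest. The means were 46.1 ± 22.0 CPM in AML (SD, n = 5) and 43.3 ± 7.96 in Normal (SD, n = 12), a log2 fold change of 0.08 with a standard error of 0.25 and an adjusted p of 0.889. Within Normal, Trp53 was at 29.6 to 40.7 CPM in title numbers 1 to 7 and at 43.0 to 54.6 in 8 to 17, ranges that did not overlap, and it was higher in the second range by 0.46 on the log2 scale (adjusted p = 0.00385).

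Mdm2 (chromosome 10, 117688875 to 117710758) encodes the ligase that degrades p53. It stood at 149.7, 221 and 115 CPM in WT, 219, 141 and 109 in URE het, 183, 128 and 115 in Tet2 het, and 185, 142 and 113 in Tet2 KO. In AML it stood at 170.3 and 141 CPM in URE het Tet2 het and at 188, 100.1 and 89.3 in URE het Tet2 KO. KO compound 2 and 3 were below all Normal libraries and the other three lay inside their range, with a log2 fold change of -0.11, a standard error of 0.23 and an adjusted p of 0.806. In Normal, Mdm2 was lower in title numbers 8 to 17 (109 to 142 CPM) than in 1 to 7 (149.7 to 221), by -0.66 on the log2 scale (adjusted p = 0.000737), the opposite direction to Trp53.

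Mdm4 (chromosome 1, 132959484 to 133030561) encodes the inhibitor of p53's transactivation domain. Its Normal levels were 179, 151 and 179.8 CPM in WT, 222, 185 and 169 in URE het, 199, 174 and 172 in Tet2 het, and 172, 163 and 165 in Tet2 KO. The AML levels were 323 and 284 CPM in URE het Tet2 het and 179, 201 and 163 in URE het Tet2 KO. Both URE het Tet2 het libraries were above every other library, and all 3 URE het Tet2 KO libraries lay within the Normal range of 151 to 222, though KO compound 2 was above the Normal libraries of title numbers 8 to 17. Mdm4 rose in AML by 0.41 on the log2 scale with a standard error of 0.11 (adjusted p = 0.0312 by edgeR). That call ended in 10 of 17 fits that left out 1 library, with no filter on low counts (adjusted p = 0.117) and with limma voom (adjusted p = 0.0933). In all, 13 of 26 alternatives did not keep it. Between the compound groups, URE het Tet2 KO minus URE het Tet2 het was -0.74 for Mdm4, with an adjusted p of 0.208 by edgeR and a call by DESeq2. A gene model on the other strand, Gm29257, overlaps Mdm4, and how strand was treated in the counting is not given in the sources used here.

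**Figure D2:**
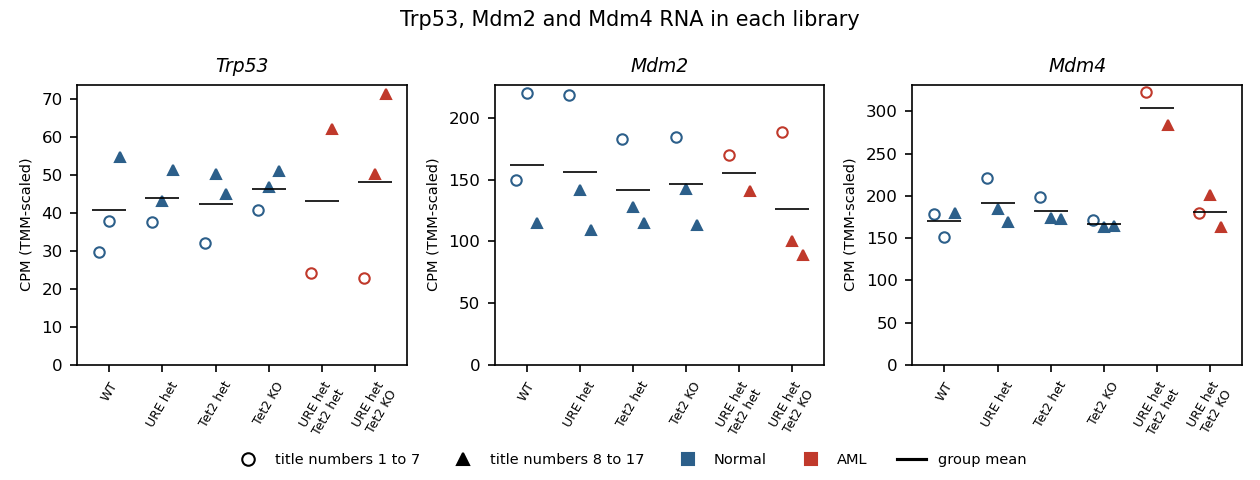
Level in CPM (vertical axis) of Trp53, Mdm2 and Mdm4 in each of the 17 libraries by genotype group, blue for Normal and red for AML, circles for title numbers 1 to 7 and triangles for 8 to 17, with a bar at each group mean. The AML points of Trp53 run from 22.7 to 71.3, and the 2 URE het Tet2 het points of Mdm4, 323 and 284, are above all others.

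Among the cell cycle genes, none of 4 was called in AML against Normal, and their median log2 fold change was -0.29. Ccng1 (chromosome 11, 40748552 to 40755311) encodes cyclin G1, a partner of the phosphatase PP2A that acts on MDM2. Its levels in the 12 Normal libraries ran from 68.5 to 115 CPM with a median of 93.0, and the AML libraries had 246 and 38.1 in URE het Tet2 het and 71.4, 227 and 139.7 in URE het Tet2 KO. Of the AML libraries 3 were above all Normal libraries, 1 was below all, and KO compound 1 was inside. The log2 fold change of Ccng1 was 0.69 with a standard error of 0.31 (adjusted p = 0.168).

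Btg2 encodes an antiproliferative cofactor of mRNA deadenylation. It had 158, 194 and 112 CPM in WT, 120.3, 49.0 and 40.2 in URE het, 205, 91.9 and 91.8 in Tet2 het, and 94.4, 79.3 and 54.3 in Tet2 KO, and in AML 89.1 and 126 in URE het Tet2 het and 70.0, 24.8 and 104 in URE het Tet2 KO. Of the AML libraries only KO compound 2 left the range of all Normal libraries, below it, but beside the Normal libraries of the same title number range Btg2 was below in KO compound 1, KO compound 2 and het compound 1 and above in het compound 2. Plk2 encodes a polo-like kinase of the stress response, with 19.4, 49.2 and 14.9 CPM in WT, 13.2, 0.997 and 1.07 in URE het, 26.6, 6.57 and 7.10 in Tet2 het, and 7.33, 4.23 and 4.15 in Tet2 KO. Its AML levels were 1.82 and 19.6 CPM in URE het Tet2 het and 3.09, 1.15 and 3.93 in URE het Tet2 KO. All 5 were inside the range of all Normal libraries, but beside Normal of the same title numbers Plk2 was below in KO compound 1 and het compound 1 (7.33 to 49.2 CPM in Normal) and above in het compound 2 (0.997 to 14.9). Gtse1 encodes a microtubule-bound protein that holds p53 down in G2 phase. It had 18.7, 16.6 and 13.8 CPM in WT, 23.7, 24.8 and 22.2 in URE het, 27.8, 16 and 17.9 in Tet2 het, 28.1, 19.4 and 15.9 in Tet2 KO, 9.33 and 20.8 in URE het Tet2 het, and 28.5, 11.7 and 12.8 in URE het Tet2 KO. Gtse1 was below all Normal libraries in the 3 AML libraries far out on the first principal component, just above them in KO compound 1, and inside in the fifth. The log2 fold changes were -0.27 for Btg2, -0.88 for Plk2 and -0.31 for Gtse1, with adjusted p of 0.674, 0.44 and 0.465.

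Among 9 tested apoptosis genes, Zmat3 and Trp53inp1 were called, 8 fold changes were positive, and the median log2 fold change was 0.40. Zmat3 (chromosome 3, 32334792 to 32366014) encodes an RNA-binding zinc finger protein that regulates splicing and acts as a tumour suppressor downstream of p53. Its levels were 1.79, 1.63 and 3.13 CPM in WT, 2.09, 2.23 and 2.19 in URE het, 1.79, 2.58 and 2.66 in Tet2 het, and 1.30, 2.56 and 2.41 in Tet2 KO. The AML levels were 6.93 and 1.83 CPM in URE het Tet2 het and 3.30, 15.9 and 6.8 in URE het Tet2 KO. The AML libraries were above all 12 Normal libraries in 4 of 5 cases, as were 4.59% of all genes tested in at least 4 of 5, and het compound 2 lay inside the Normal range but below the Normal libraries of title numbers 8 to 17. Zmat3 rose in AML by 1.48 on the log2 scale, with a standard error of 0.34 and an adjusted p of 0.0131. That call ended without het compound 1 or without KO compound 2, with voom and in title numbers 8 to 17 alone (adjusted p 0.000104 to 0.896 over 26 alternatives).

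Trp53inp1 (chromosome 4, 11156431 to 11174379) encodes a nuclear protein that promotes p53 activity and, in the cytoplasm, autophagy. Its Normal levels were 49.9, 47.7 and 41.0 CPM in WT, 67.6, 46.1 and 22.0 in URE het, 51.9, 29.3 and 38.6 in Tet2 het, and 46.2, 31.9 and 21.9 in Tet2 KO. In AML it had 287 and 15.4 CPM in URE het Tet2 het and 107, 148 and 64.3 in URE het Tet2 KO. The 2 URE het Tet2 het libraries were thus the highest and the lowest of all 17, and KO compound 1 and 2 were above the Normal range and KO compound 3 just under its top. Trp53inp1 rose in AML by 1.64 on the log2 scale with a standard error of 0.42 (adjusted p = 0.0225). Without het compound 1 that value was -0.02, and in title numbers 8 to 17 alone it was 0.26. The call also ended without KO compound 2, with no filter on low counts (adjusted p = 0.064 by edgeR) and with voom (adjusted p = 0.224). It thus rests on those libraries and on the settings, and 6 of 26 alternatives did not keep it.

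Bax encodes the pore-forming protein of the outer mitochondrial membrane. It had 4.14, 3.88 and 4.88 CPM in WT, 3.70, 6.35 and 6.09 in URE het, 3.37, 5.77 and 5.41 in Tet2 het, 2.90, 4.46 and 5.47 in Tet2 KO, 3.22 and 8.66 in URE het Tet2 het, and 3.93, 7.63 and 7.74 in URE het Tet2 KO. The 3 AML libraries with title numbers 8 to 17 were above every Normal library and the 2 with lower numbers were inside the range. The log2 fold change of Bax was 0.40 (adjusted p = 0.347). Bbc3 encodes PUMA, which frees BAX from its inhibitors. It had 1.14, 3.29 and 0.404 CPM in WT, 1.25, 0.498 and 0.433 in URE het, 0.496, 0.326 and 0.429 in Tet2 het, 1.22, 0.532 and 0.735 in Tet2 KO, 1.17 and 1.87 in URE het Tet2 het, and 0.803, 0.401 and 0.575 in URE het Tet2 KO. All AML values of Bbc3 lay inside the Normal range, whose top was 1 library, WT replicate 2, and het compound 2 was above the Normal libraries of title numbers 8 to 17. Ei24 encodes a membrane protein of the endoplasmic reticulum that takes part in autophagy. It had 22.6, 21.2 and 23.9 CPM in WT, 23.6, 18.9 and 12.1 in URE het, 22.0, 11.6 and 14 in Tet2 het, 24.4, 15.8 and 19.1 in Tet2 KO, 41.5 and 11.7 in URE het Tet2 het, and 14.6, 39.0 and 17.7 in URE het Tet2 KO. Het compound 1 and KO compound 2 were above all Normal libraries for Ei24, with 3 AML libraries inside, of which KO compound 1 was below Normal of title numbers 1 to 7; the log2 fold change was 0.41 with an adjusted p of 0.396.

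The other 4 tested apoptosis genes were not called. Pmaip1 encodes NOXA, a BH3-only protein that neutralises MCL1, with 1.30 to 10.2 CPM in Normal and 2.92 to 10.9 in AML, a log2 fold change of 0.76 with a standard error of 0.32 (adjusted p = 0.139). Aen encodes a nuclease that acts in apoptosis, with 5.68 to 12.7 CPM in Normal and 4.72 to 12.5 in AML (log2 fold change 0.24). Apaf1, the core of the apoptosome, had 73.5 to 115 CPM in Normal and 72.3 to 135 in AML (log2 fold change 0.01). Perp encodes a desmosome protein with a part in apoptosis and spread most widely of these 4, from 0.267 to 8.50 CPM in Normal and from 0.115 to 10.8 in AML (log2 fold change -0.05). For Perp, 2 AML libraries were below all Normal libraries and 1 above.

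Of the 3 death receptors, Fas, the receptor for the ligand FasL, had 6.88, 10.1 and 3.90 CPM in WT, 11.1, 3.55 and 2.45 in URE het, 4.37, 2.37 and 1.72 in Tet2 het, and 5, 3.39 and 1.5 in Tet2 KO. Its AML levels were 14.8 and 2.10 CPM in URE het Tet2 het and 5.62, 9.95 and 11.2 in URE het Tet2 KO. Beside the Normal libraries of its own title number range, Fas was higher in 3 of 5 AML libraries and lower in none, with a log2 fold change of 0.99, a standard error of 0.44 and an adjusted p of 0.165. With a term for title number range, which called 18.4% of all genes, it was called (1.03, adjusted p = 0.0424). Tnfrsf10b, the mouse TRAIL receptor, had 0.382 to 2.09 CPM in Normal and 0.976 to 1.42 in AML, and Eda2r, a receptor of the TNF family that binds ectodysplasin, 0 to 0.412 and 0 to 0.631. Neither was called, with log2 fold changes of -0.15 and -0.11.

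Among the repair genes, Polk (chromosome 13, 96480690 to 96542579) encodes DNA polymerase kappa, which copies past damaged bases. Its Normal levels were 14.5, 12.3 and 14.5 CPM in WT, 14.4, 16.4 and 16.9 in URE het, 11.2, 17.2 and 16.6 in Tet2 het, and 12.3, 17.3 and 19.1 in Tet2 KO. The AML levels were 32.7 and 26.4 CPM in URE het Tet2 het and 12.8, 30.7 and 24.3 in URE het Tet2 KO. KO compound 1 was inside the Normal range and the other 4 AML libraries were above it, also beside the Normal libraries of their own title number range. Polk rose in AML by 0.76 on the log2 scale with a standard error of 0.18 (adjusted p = 0.0162), and the call ended without het compound 1, KO compound 2 or KO compound 3 (adjusted p 0.000647 to 0.603 over 26 alternatives). The gene model Gm17622 overlaps Polk on the other strand.

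Xpc encodes the damage sensor of nucleotide excision repair. It had 72.0, 55.5 and 28.7 CPM in WT, 58.5, 42.4 and 44.5 in URE het, 55.9, 30.7 and 34.6 in Tet2 het, 61.2, 34.8 and 29.6 in Tet2 KO, 80.2 and 43.0 in URE het Tet2 het, and 59.8, 69.5 and 72.4 in URE het Tet2 KO. Its 3 AML libraries with title numbers 8 to 17 had 43.0 to 72.4 CPM beside 28.7 to 44.5 in Normal of that range. The log2 fold change of Xpc was 0.50 with a standard error of 0.23 (adjusted p = 0.183), and with a term for title number range it was 0.55 and called (adjusted p = 0.0228). Rrm2b, a ribonucleotide reductase subunit that supplies nucleotides for repair, had 15.9 to 28.8 CPM in Normal and 10.6 to 41.7 in AML, above the Normal range in 2 AML libraries and below it in 1 (log2 fold change 0.33, adjusted p = 0.419).

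Of the 9 genes of metabolism, redox balance and stress, Ddit4 was called and 7 had a positive fold change, with a median log2 fold change of 0.56. Ddit4 (chromosome 10, 59949669 to 59951834) encodes REDD1, an inhibitor of mTORC1 that stress and glucocorticoids also switch on. Its Normal levels were 8.21, 18.8 and 2.93 CPM in WT, 6.05, 2.16 and 1.79 in URE het, 7.24, 2.64 and 3.89 in Tet2 het, and 6.57, 2.89 and 2.03 in Tet2 KO. In AML it had 70.6 and 6.18 CPM in URE het Tet2 het and 15.7, 25.7 and 23.3 in URE het Tet2 KO. Of the AML libraries 3 were above all Normal libraries, and the other two lay under WT replicate 2, the Normal library with the highest level. Beside Normal libraries of the same title number range, 4 AML libraries were above and KO compound 1 was inside. Ddit4 rose in AML by 2.55 on the log2 scale, a fold of 5.86, with a standard error of 0.48 and an adjusted p of 0.00515. The call ended without het compound 1, where the log2 fold change was 1.23 (adjusted p = 0.144, range over 26 alternatives 2.41e-05 to 0.421).

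The sestrins restrain mTORC1 when leucine is short or under stress, and neither of the 2 among the members was called. Sesn1 (chromosome 10, 41809935 to 41908424) had 32.5, 26.3 and 31.2 CPM in WT, 29.7, 25 and 28.5 in URE het, 33.2, 31.3 and 38.4 in Tet2 het, and 30.2, 34.3 and 34.7 in Tet2 KO. Its AML levels were 13.9 and 45.0 CPM in URE het Tet2 het and 17.2, 17.3 and 21.7 in URE het Tet2 KO. Het compound 2 was the highest of all libraries and the other 4 AML libraries were below all Normal libraries, as were 5.58% of all genes tested in at least 4 of 5. The log2 fold change of Sesn1 was -0.41 with a standard error of 0.20, and an adjusted p of 0.219. Sesn2 had 4.60, 8.15 and 4.78 CPM in WT, 8.02, 2.03 and 1.65 in URE het, 4.61, 2.22 and 1.72 in Tet2 het, 1.76, 1.86 and 2.53 in Tet2 KO, 4.52 and 3.23 in URE het Tet2 het, and 4.52, 4.62 and 3.30 in URE het Tet2 KO. All AML values of Sesn2 lay inside the Normal range, with a log2 fold change of 0.24 and an adjusted p of 0.719.

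Fdxr encodes ferredoxin reductase of the mitochondrial electron chain that feeds steroid and iron-sulphur synthesis. It had 9.44, 8.18 and 5.42 CPM in WT, 8.32, 4.39 and 5.43 in URE het, 10.5, 4.68 and 4.69 in Tet2 het, 10.7, 5.16 and 4.53 in Tet2 KO, 6.50 and 8.30 in URE het Tet2 het, and 7.57, 4.76 and 5.87 in URE het Tet2 KO. Every AML value of Fdxr lay inside the range of all Normal libraries, with a log2 fold change of -0.01 and an adjusted p of 0.986. Beside Normal of the same title numbers, KO compound 1 and het compound 1 were below (8.18 to 10.7 CPM in Normal), het compound 2 and KO compound 3 were above (4.39 to 5.43), and KO compound 2 was inside. Tigar, a fructose bisphosphatase that slows glycolysis, had 4.84 to 8.95 CPM in Normal and 6.89 to 13.7 in AML (log2 fold change 0.44, adjusted p = 0.107). In 4 of 5 AML libraries Tigar exceeded the Normal libraries of the same title number range. Gdf15, a secreted stress hormone, had 0 to 0.769 CPM in Normal and 0 to 1.78 in AML. Its log2 fold change of 2.25, with a standard error of 0.71 and an adjusted p of 0.0556, is of a gene near the limit of detection. The other three were not called: Dcxr, a sugar and carbonyl reductase, had 0.611 to 1.66 CPM in Normal and 0.813 to 4.56 in AML; Ephx1, an epoxide hydrolase, 0.0296 to 0.916 and 0.0846 to 1.69; and Ak1, an adenylate kinase, 0 to 0.303 and 0 to 0.631.

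**Figure D3:**
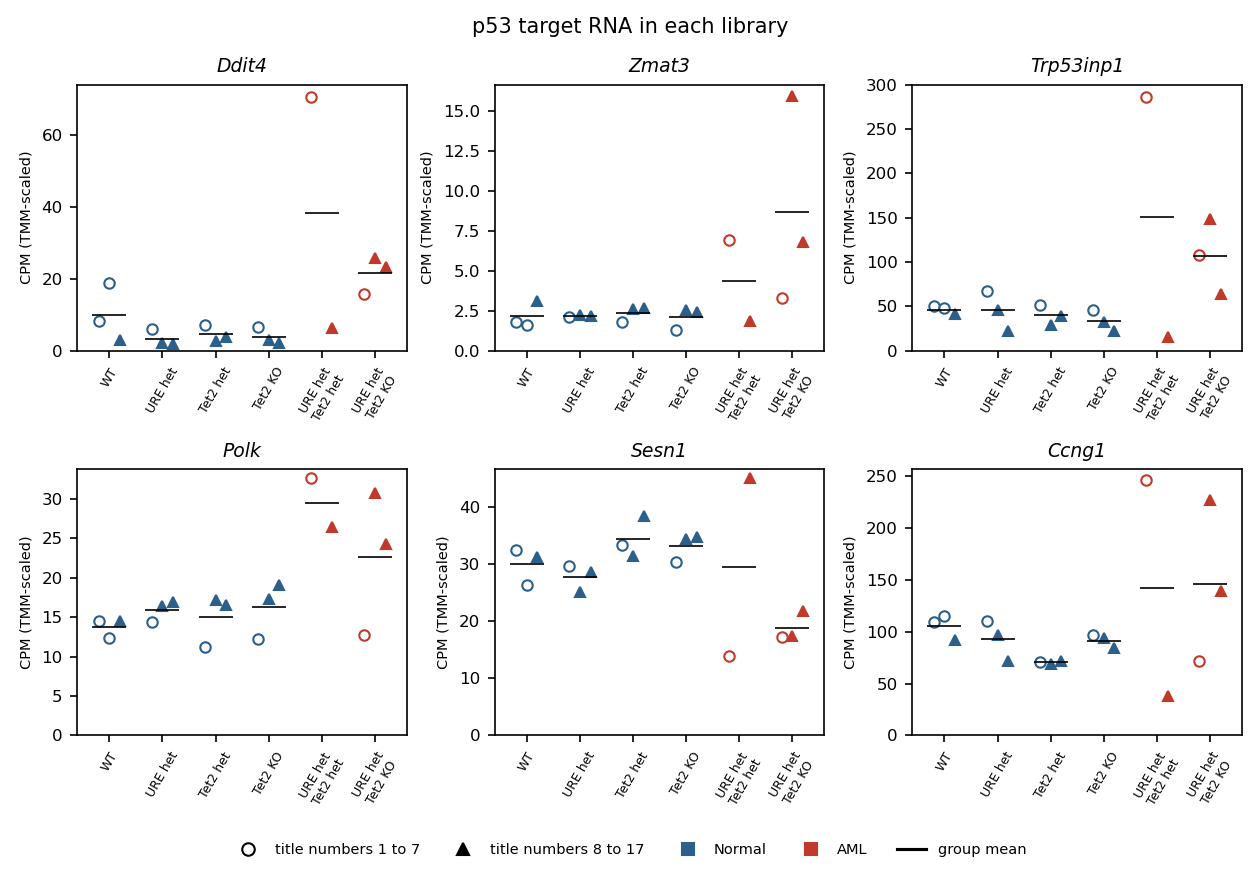
Level in CPM (vertical axis) of Ddit4, Zmat3, Trp53inp1, Polk, Sesn1 and Ccng1 in each of the 17 libraries by genotype group, blue for Normal and red for AML, circles for title numbers 1 to 7 and triangles for 8 to 17, with a bar at each group mean. The red points of Trp53inp1 run from 15.4 to 287, past both ends of the Normal points, and 4 of 5 red points of Sesn1 are below all Normal points.

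Levels of different genes were set side by side per kilobase of exon, with all annotated exons of a gene merged. That length can exceed the transcript that is expressed, so the comparison is rough. On this scale Mdm2 was the highest of the regulators in Normal, with a mean of 29.8 CPM per kb, beside 12 for Mdm4 and 10.7 for Trp53. Among the targets, Btg2 (39.2 CPM per kb) and Ccng1 (25.7) had high mean levels in Normal, while Zmat3 (0.192), Gdf15 (0.114), Ak1 (0.0435) and Eda2r (0.0277) were low. Of the members called in AML, the Normal mean per kb was 0.192 for Zmat3, 2.74 for Polk, 3.10 for Ddit4, 6.36 for Trp53inp1 and 12 for Mdm4. By this rough measure the called members ranged from barely expressed to well expressed.

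The AML libraries were then taken 1 by 1, since members moved in opposite directions within the group. Against all 12 Normal libraries, KO compound 1 had 6 of 31 members above and 2 below, beside 14.9% and 15.3% of all genes tested. Het compound 1 had 10 above and 4 below (21.5% and 21.6% of all genes), and het compound 2 had 10 above and 3 below (20.5% and 15.2%). KO compound 2 had 13 above and 6 below (22.7% and 22%), and KO compound 3 had 12 above and 4 below (20.9% and 18.5%). Against all 12, every AML library had more members above than below. A larger share of the members than of all genes was above, and a smaller share was below. Beside the Normal libraries of its own title number range, given below, KO compound 1 showed the reverse on each of these points. No member was above, or below, all Normal libraries in all 5, as 0.827% and 0.692% of all genes were.

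The members that left the Normal range differed between libraries. Het compound 1 was above it for Ccng1, Ddit4, Ei24, Fas, Mdm4, Polk, Rrm2b, Trp53inp1, Xpc and Zmat3, and below it for Trp53, Aen, Gtse1 and Sesn1. The other library of the same genotype was above it for Trp53, Bax, Pmaip1, Sesn1, Tigar, Dcxr, Ak1, Gdf15, Mdm4 and Polk, and below it for Ccng1, Rrm2b and Trp53inp1. Of those genes, Mdm4 and Polk were above in both libraries, while Trp53, Sesn1, Ccng1, Rrm2b and Trp53inp1 were on opposite sides. KO compound 2 and 3 were both above the range for Bax, Ccng1, Dcxr, Ddit4, Ephx1, Polk and Zmat3 and both below it for Mdm2, Gtse1, Perp and Sesn1. KO compound 1 was above it for Apaf1, Gtse1, Perp, Tigar, Trp53inp1 and Zmat3 and below it for Trp53 and Sesn1.

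Beside the Normal libraries of the same title number range alone, the AML libraries of numbers 1 to 7 had 7 members above and 8 below (KO compound 1, beside 24.1% and 23.7% of all genes) and 10 above and 7 below (het compound 1, beside 30.2% and 29.2%). Those of numbers 8 to 17 had 15 above and 4 below (het compound 2, 29.6% and 23.6%), 16 above and 6 below (KO compound 2, 29.3% and 29.3%) and 15 above and 5 below (KO compound 3, 28.6% and 26.1%). The median log2 ratio of the members to the mean of those Normal libraries was -0.02 and -0.16 in the first 2 and 0.35, 0.47 and 0.44 in the other 3, with medians over all genes tested of -0.05 to 0.01. At least 4 of 5 AML libraries were above for Ddit4, Polk, Tigar, Trp53inp1 and Zmat3 (8.95% of all genes) and below for Sesn1 (9.58%).

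**Figure D4:**
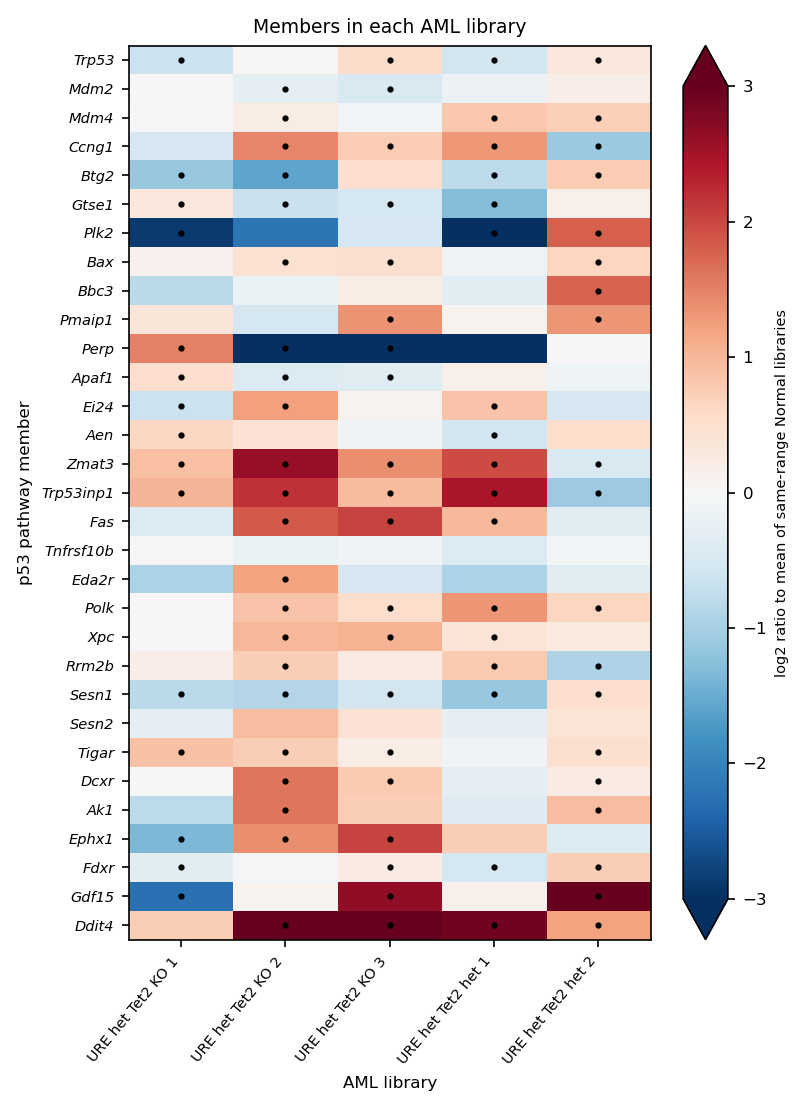
Log2 ratio (colour, limited to between -3 and 3) of each member, in rows, in each of the 5 AML libraries, in columns, to the mean of the Normal libraries of the same title number range, with 0.1 CPM added to both; a dot marks a value outside the range of those Normal libraries. Sesn1 is below in 4 columns and above in 1, and Trp53inp1 and Zmat3 are above in 4 and below in 1.

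In the single mutants, no member was called against WT by edgeR's test with Benjamini-Hochberg adjustment, beside 0% of all genes in each comparison. In URE het against WT, 3 members had an unadjusted p under 0.05: Pmaip1 (log2 fold change -1.68), Plk2 (-2.45) and Btg2 (-1.15), with 0 called by DESeq2 and 1, Plk2, by voom (0.396% of all genes by voom). In Tet2 het against WT there were 2, Bbc3 (-1.95) and Gdf15 (-2.90), and none was called by DESeq2 or voom. In Tet2 KO against WT there were 3, Sesn2 (-1.51), Plk2 (-2.41) and Gdf15 (-3.13), with 0 called by DESeq2 and 1, Plk2, by voom (0.431% of all genes). All of these were lower in the mutant, and the 3 comparisons share the WT libraries, of which 2 of 3 have title numbers 1 to 7 against 1 of 3 in each mutant group. Of all 19951 genes tested, 753, 585 and 512 had an unadjusted p under 0.05 in these 3 comparisons, beside 3, 2 and 3 of 31 members. The members' median log2 fold changes were -0.11, -0.22 and -0.20, beside -0.01, 0.00 and -0.00 over all genes.

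The URE deletion on top of Tet2 loss was compared next, in libraries that also enter AML against Normal. In URE het Tet2 KO against Tet2 KO, edgeR called 0 members, beside 0.977% of all genes (0.396% higher and 0.581% lower). The unadjusted p was under 0.05 for 7 members: Zmat3 (log2 fold change 2.05, adjusted p = 0.0868), Ddit4 (2.49, adjusted p = 0.148), Gdf15 (2.86), Trp53inp1 (1.68), Dcxr (1.27), Tigar (0.65) and Sesn1 (-0.82). DESeq2 called Ddit4 and Zmat3, where it called 6.09% of genes with an adjusted p. Voom called 7 of 31, where it called 18.3% of all genes: Dcxr, Ddit4, Fas, Trp53inp1, Xpc and Zmat3 higher and Sesn1 lower. In URE het Tet2 het against Tet2 het, edgeR again called 0 members, beside 0% of all genes, and 6 had an unadjusted p under 0.05. These were Mdm4 (0.74, adjusted p = 0.153), Ddit4 (3.07, adjusted p = 0.171), Gdf15 (3.99), Trp53inp1 (1.92), Bbc3 (1.87) and Polk (0.98), of which DESeq2 called Ddit4 and Mdm4 (3.2% of genes with an adjusted p) and voom none. Of all 19951 genes tested, 3015 and 2652 had an unadjusted p under 0.05 in the 2 comparisons, beside 7 and 6 of 31 members. The members' medians were 0.48 and 0.45 in the 2 comparisons, beside 0.03 and 0.06 over all genes.

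Between the compound groups, edgeR called 0 members, beside 0.01% of all genes. Mdm4 alone had an unadjusted p under 0.05, was called by DESeq2 (1.79% of genes) and was not called by voom. The interaction of the URE deletion with Tet2 KO, which asks whether the deletion changed a gene by more in Tet2 KO than in WT, gave 0 calls by edgeR, beside 0% of all genes. It had 5 members with an unadjusted p under 0.05, all positive: Ddit4 (4.08, adjusted p = 0.415), Gdf15 (4.20), Pmaip1 (2.20), Zmat3 (2.06) and Tigar (0.87). DESeq2 called 1 of them, Ddit4 (0.806% of genes), and voom called 6, 5 positive and Perp negative (8.93% of genes). The members' median was 0.79 there and 0.09 between the compound groups, beside 0.03 and -0.09 over all genes. Of all 19951 genes tested, 1618 had an unadjusted p under 0.05 in the interaction and 2344 between the compound groups.

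Within the 12 Normal libraries, title numbers 8 to 17 were compared with 1 to 7, with genotype in the fit. More members were called there than in any genotype comparison: 16 of the 29 tested, 4 higher and 12 lower, beside 36.4% of all genes (17.1% higher and 19.3% lower). Higher in 8 to 17 were Trp53, Bax (log2 fold change 0.63, adjusted p = 0.00515), Zmat3 (0.60, adjusted p = 0.0316) and Polk (0.37, adjusted p = 0.0199). Lower with adjusted p under 0.001 were Mdm2, Ddit4 (-1.59, adjusted p = 0.000228), Fas (-1.30, adjusted p = 0.000748), Btg2 (-0.95, adjusted p = 0.000333), Fdxr (-0.95, adjusted p = 0.000119) and Xpc (-0.82, adjusted p = 0.000146). Plk2 (-1.90), Bbc3 (-1.31), Sesn2 (-0.94), Trp53inp1 (-0.66), Gtse1 (-0.45) and Ei24 (-0.43) were the others called lower. The median over the 29 was -0.41, beside 0.03 over all genes.

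The ranges of the Normal libraries show this directly. Ddit4 had 6.05 to 18.8 CPM in the 5 libraries of numbers 1 to 7 and 1.79 to 3.89 in the 7 of numbers 8 to 17, and Fas 4.37 to 11.1 and 1.5 to 3.90. Fdxr had 8.18 to 10.7 CPM and 4.39 to 5.43, and Xpc 55.5 to 72.0 and 28.7 to 44.5. For Bax the order was turned, with 2.90 to 4.14 CPM and 4.46 to 6.35, and likewise for Zmat3, with 1.30 to 2.09 and 2.19 to 3.13. For these genes, and for Trp53 and Mdm2, the ranges of the 2 sets did not overlap. How many of all genes did the same was not counted, so whether this is particular to the members was not tested. Of the 29 members tested, 4 were called higher and 12 lower, beside 17.1% and 19.3% of all genes. Ddit4 and Trp53inp1 were lower in the second range of Normal libraries and higher in AML, and Zmat3 and Polk were higher in both. The calls of Zmat3 and Sesn2 between title number ranges each held in 8 of 17 alternatives and that of Ei24 in 10, and each was lost on leaving out any of 7 or 8 of the 12 libraries. Those of Polk and Gtse1 ended without Tet2 KO replicate 1 or Tet2 het replicate 1, that of Bbc3 without URE het replicate 1 or WT replicate 3, and that of Trp53inp1 without URE het replicate 1 or Tet2 KO replicate 1 or with no filter on low counts. None of these changed direction.

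**Figure D5:**
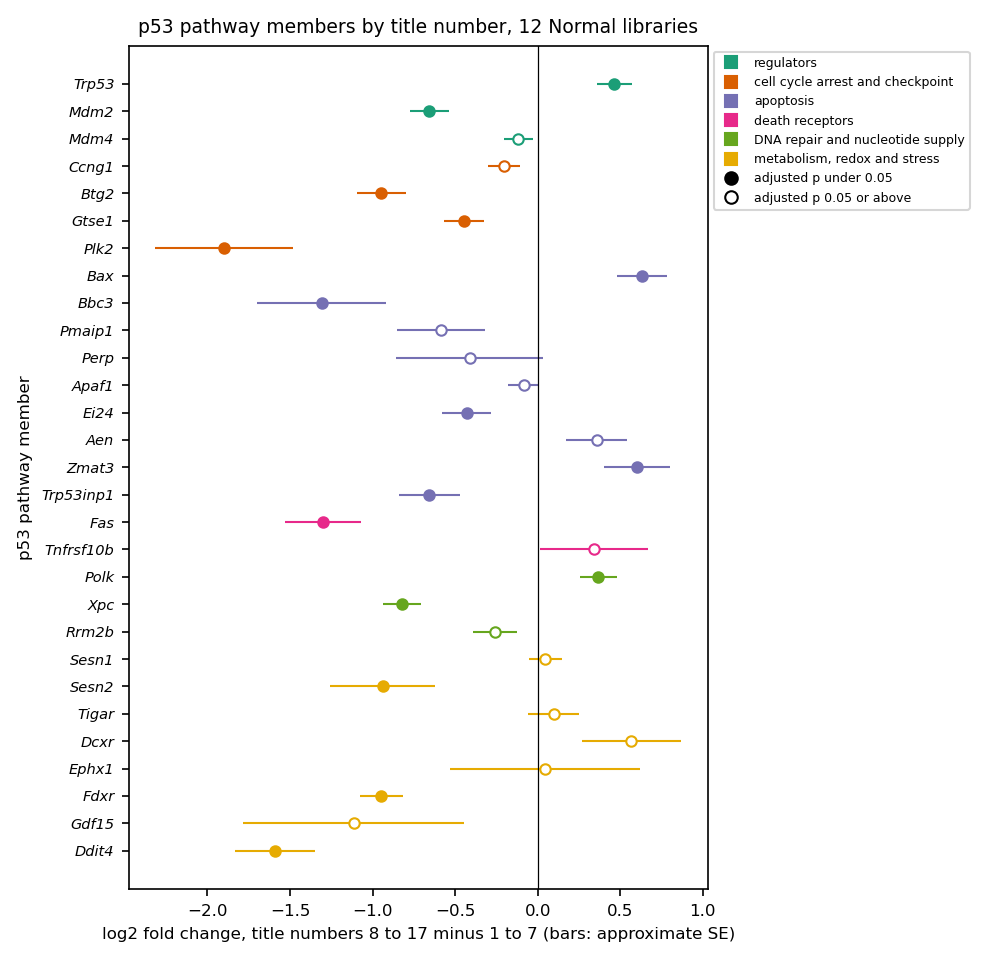
Log2 fold change of title numbers 8 to 17 against 1 to 7 within the 12 Normal libraries (horizontal axis) for the 29 members tested. Bars are 1 approximate standard error on each side, and filled points have an adjusted p under 0.05. Of the 16 filled points 12 lie to the left of 0, Plk2 and Ddit4 farthest.

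Other genes of the pathway were counted in AML against Normal, where 11% of all genes were called: 3 of 20 upstream regulators and partners and 4 of 32 other targets. Of the 20 upstream regulators and partners of p53, Cul9, a cytoplasmic p53-binding ligase scaffold, was higher (log2 fold change 1.12, adjusted p = 0.00116), with 4.19 to 7.65 CPM in Normal and 7.19 to 16.6 in AML. Cop1, a ubiquitin ligase for p53, was lower (-0.66, adjusted p = 0.0163), as was Ppp1r13b, which encodes the p53 cofactor ASPP1 (-0.67, adjusted p = 0.0366), and the median over the 20 was -0.06. Of 32 other tested p53 targets, Abhd4, a lipid hydrolase, was higher (0.82, adjusted p = 0.0265). Sesn3, the third sestrin (-0.96, adjusted p = 0.018), Pcna, the sliding clamp of DNA replication (-0.96, adjusted p = 0.0285), and Dglucy, a D-glutamate cyclase (-0.82, adjusted p = 0.0457), were lower, and the median was 0.14. Cdkn1a, which encodes the cell cycle inhibitor p21 and is the best known p53 target, had 2.43 to 13.9 CPM in Normal and 4.10 to 8.68 in AML, with a log2 fold change of 0.35 (adjusted p = 0.633). None of either list was called in the other genotype comparisons. Between title number ranges in Normal, 2 of the 32 targets were higher and 15 lower, Cdkn1a among them (-1.37, adjusted p = 0.00187), and 4 of the 20 regulators were higher and 4 lower, beside 17.1% of all genes higher and 19.3% lower.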

How the data were processed

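Polyadenylated RNA of 17 libraries was sequenced. Per the submitters' processing notes, reads were aligned with STAR to GRCm38; the STAR version, the annotation, the counter and its strand setting are not given in the sources used here. Raw counts fill the deposited table for 96004 features, 47643 gene rows and 48361 rows whose names carry "enh"; only gene rows entered the tests. Gene symbols, coordinates and exon lengths came from GENCODE vM21 (GRCm38), which matched 47224 gene rows.

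Counts were tested with edgeR 4.0.16 (R 4.3.3) by the robust quasi-likelihood F test after TMM scaling and a filter on low counts (minimum count 10, minimum total 15), with 1 mean for each of 6 genotypes over all libraries. Adjusted p is Benjamini-Hochberg over all genes tested, with a threshold of 0.05. Standard errors are approximate, taken as the absolute log2 fold change divided by the square root of the test's F. CPM are TMM-scaled. Title numbers were compared in the 12 Normal libraries alone, where 18282 genes and 29 members passed the filter (Ak1, Eda2r and Phlda3 did not). Alternatives were DESeq2 1.42.0, its size factors, limma 3.58.1 voom with quality weights, no filter, no robust estimation, a title number term, and leaving out libraries. The test was checked on simulated counts.

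Members described with every library are Trp53, Mdm2, Mdm4, those called in any comparison, and those outside the Normal range in at least 4 of 5 AML libraries; Ccng1 was added for its promoter element after its values were seen. The members and lists were chosen with earlier results of these data known. The result of 1 marker list is not reported here.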

Additional observations from a re-analysis of the deposited data

Results flagged for a closer look

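For Tnfrsf10b, the TRAIL receptor gene, het compound 1 stood apart from the other AML libraries at 0.976 CPM, where the others had 1.32 to 1.42. On the log2 CPM scale the gap was 0.798 of the group's range, above the critical value of 0.71 for 5 samples. Chance gives such a gap in about 1 in 20 groups, and 31 members were looked at.

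The rows whose names carry "enh" and a member's Ensembl gene id entered no comparison, and what they measure is not given in the sources used here. Members with at least 200 counts in such rows and an AML library over 2 times the highest Normal library, a rule chosen after seeing the data, were Trp53, Trp53inp1 and Ephx1. The enh rows of Trp53 had 28.9 CPM in het compound 2, a ratio of 2.04 to the highest of the Normal libraries, which lay at 6.01 to 14.2. Those of Trp53inp1 had 11.1 CPM in het compound 1, 13.1 in KO compound 2 and 7.05 in KO compound 3, against 0.993 to 2.86 in Normal, a ratio of 4.57. The remaining AML libraries had 1.95 and 1.89 CPM. Those of Ephx1 had up to 1.44 CPM in KO compound 1, a ratio of 2.51 to the highest Normal library, and 4 of 5 AML libraries were above the Normal range of 0 to 0.573. These Ephx1 values rest on few reads, 20 to 34 counts per AML library and 0 to 15 per Normal library. How many other genes met the rule was not counted.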

How the results depend on the processing

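The 5 members called in AML against Normal came to 3 with no filter, 2 with voom (Ddit4 and Polk), 8 in title numbers 8 to 17 alone (20.9% of all genes called), 1 with only the 2 AML libraries near Normal on the first component (Ccng1, lower) and 13 with only the 3 far ones (10 higher and 3 lower, 26.5% of all genes); the last 2 were chosen after seeing the data. Leaving out 1 library gave 0 to 9 calls: 0 without het compound 1, 1 without KO compound 2, 3 without KO compound 3 and 9 without het compound 2. Trp53inp1 turned to -0.0182 without het compound 1 and to -0.0514 with only the 2 near libraries; no other of the 5 called members changed sign. Members that were not called did, among them Ccng1 (-0.82), Fas (-0.39), Ei24 (-0.58) and Gdf15 (-0.82) with only the 2 near libraries, and Plk2 (0.62) and Btg2 (0.27) in title numbers 8 to 17 alone. The 8 of that fit held Ddit4, Polk and Mdm4 but not Zmat3 (0.81) or Trp53inp1 (0.26). The others in it were Xpc (0.70), Bbc3 (1.04), Bax (0.60) and Gdf15 (3.43), all higher, and Perp (-1.71), lower. In it, WT and URE het Tet2 het had 1 library each. Over leave-one-out fits the log2 fold changes ran from 1.23 to 2.98 for Ddit4, 0.85 to 1.81 for Zmat3, 0.60 to 0.91 for Polk, 0.34 to 0.44 for Mdm4 and -0.02 to 2.09 for Trp53inp1. Where no share of all genes is given beside a count of calls, that count cannot be read as particular to the members.

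Counts of 0 elsewhere moved as follows. With voom, URE het against WT and Tet2 KO against WT each gave 1, the interaction 6 and URE het Tet2 KO against Tet2 KO 7. With DESeq2 the last gave 2, URE het Tet2 het against Tet2 het 2, the compound groups against each other 1 and the interaction 1. A title number term gave 1 call in URE het Tet2 KO against Tet2 KO (Ddit4) and 1 in URE het Tet2 het against Tet2 het (Mdm4). Leaving out 1 library gave 0 to 4 calls in the first of these (4 without het compound 1 or het compound 2, 1 without KO compound 1), 0 to 5 in the second (5 without het compound 2) and 0 to 4 between the compound groups (4 without het compound 1). The 16 calls between title number ranges were 11 to 16 over leave-one-out fits and within 1.5 times in all 17 alternatives. For the title number term and the leave-one-out fits no share of all genes is given here, so those counts cannot be read as particular to the members. Other causes of these shifts were not tested. No paired analysis was possible because each title carries its own number and groups share none. Depth limits Phlda3, Ak1, Eda2r, Gdf15 and Ephx1, each under 2 CPM in every library.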
